A study of Rattus norvegicus with 24 samples.

Results

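Npas4 encodes a transcription factor of the basic helix-loop-helix PAS family that is best known from neurons. Calcium that enters an active neuron through NMDA-type glutamate receptors and voltage-gated channels switches the gene on within minutes, with no need for new protein synthesis, which makes it an immediate early gene. The protein pairs with ARNT or ARNT2 and binds promoters and enhancers of activity-dependent genes, among them that of the neurotrophin Bdnf, and it is known for its part in setting the number of inhibitory synapses a neuron receives.

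The gene described here is 1 of the 32754 gene rows of the count table, the row ENSRNOG00000020009, which was chosen by its ID. Of these rows 25683 had at least 1 count and 15908 passed the filter on low counts, this row among them. It was chosen with its rise under glutamate, and its higher level with IS141 in growth medium, already known from these libraries, so both are given below as descriptions with no test. The name Npas4 came with the choice. None of the table's IDs could be matched to a symbol (0 of 32754), so the name was not checked against the data, and other genes appear by ID alone.

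The libraries were made from rat cortical cells, kept in culture for 8 days on coated 6-well plates and then given either fresh growth medium or medium with 250 μM glutamate, the main excitatory transmitter, which injures neurons in excess. In each medium there were 4 treatments with 3 libraries each: DMSO, a solvent that serves as the control, and 3 agents known by the codes IS141, AH609 and AH236. The labels give neither what these agents are nor their dose and timing, and the wells were imaged for 4 h after the change of medium, with the time of RNA collection not given. No genotype, strain or age is given either, and markers of neurons or glia could not be looked up, so the cell types present were not tested. In bulk RNA, fewer cells of a type and less RNA per cell cannot be told apart. Replicates are not said to come from separate cultures, and the p-values then speak only to the spread among these libraries, part of which may be technical. DMSO replicate 1 in medium stood apart from the 23 other libraries on the second principal component of log2 CPM, at 48.0 against -19.7 to 12.8, and values that moved most without it are also given without it.

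In the RefSeq table of the rat build GRCr8, Npas4 is a protein-coding gene on the minus strand of chromosome 1 that overlaps no other listed gene, with mrpl11 as the nearest neighbour on one side and an uncharacterised locus and then Slc29a2 on the other. The counts were made on another build, Rnor_6.0. The first 150 bases of the RefSeq promoter window, positions -250 to -101 relative to the listed start (GRCr8, chr1:211716203-211716352, minus strand), are printed because they hold the motif in capitals, TATATAA, the letters of a TATA box, the promoter element that sets the start of transcription a short way downstream of it.

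Npas4 upstream window: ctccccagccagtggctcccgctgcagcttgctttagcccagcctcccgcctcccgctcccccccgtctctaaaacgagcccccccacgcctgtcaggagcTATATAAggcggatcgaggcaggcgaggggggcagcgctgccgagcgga

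The motif spans positions -149 to -143, farther from the listed start than a TATA box usually lies. On either strand, 3.42% of the 33469 RefSeq windows of 250 bases hold it. The cAMP response element TGACGTCA was not in the 250 bases on either strand (1.59% of windows hold it), nor was its core TGACG (18.2%), the letters TCGTG that NPAS4 dimers are known to bind (14.2%), the CArG box of serum response factor (1.5%), the other TATA form TATAAA (12.9%), the GC box GGGCGG (30.5%) or the E-box CACGTG (5.59%). Of the 250 bases 66.8% were G or C, against a median of 51.2% over all windows. These matches describe the letters of this window only.

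Npas4 RNA was low but well counted in growth medium. In DMSO cultures its level was 11.1, 7.40 and 6.57 CPM (counts relative to library size, after TMM scaling) in replicates 1 to 3, a mean of 8.37 ± 2.43 (SD, n = 3). Replicate 1, the library that stood apart, was the highest of the 3, and the mean of the other two was 6.98 CPM. The counts behind these values were 330, 207 and 214, and a Poisson 95% interval for the lowest ran from 179.8 to 237 counts. Such intervals cover counting error only. In AH236 cultures the level was 10.1, 11.1 and 11.6 CPM, a mean of 10.9 ± 0.737 (SD, n = 3), which was the tightest of the medium groups. In AH609 cultures it was 12.9, 11.03 and 19.7 CPM, a mean of 14.5 ± 4.56 (SD, n = 3), with replicate 3 well above the other two.

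IS141 cultures held more Npas4 RNA than any other cultures in growth medium. Their levels were 31.1, 32.2 and 43.1 CPM, a mean of 35.5 ± 6.60 (SD, n = 3). The lowest IS141 library was 1.58-fold above the highest of the 9 other medium libraries, which was AH609 replicate 3. The share of genes with this pattern against all 9 was not counted. Against DMSO, all 3 IS141 libraries lay above all 3 control libraries, a pattern shown in this direction by 10.2% of the 15908 genes. The fitted fold change was 4.24, a log2 fold change of 2.08 ± 0.19 (SE), and 2.35 without DMSO replicate 1. Of all 15908 genes tested, 22 had a larger fitted rise with IS141 in medium, 1 of them among the 12169 genes whose mean over all libraries reached 1 log2 CPM. AH609 cultures had a log2 fold change of -1.29 ± 0.18 (SE) against IS141, and AH236 cultures had a log2 fold change of -1.69 ± 0.19 (SE) against IS141. Both groups lay wholly below the IS141 libraries, as did 12.1% and 15.5% of genes in these comparisons. As the level in IS141 medium cultures was known when the gene was chosen, none of these values is a test.

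**Figure D1:**
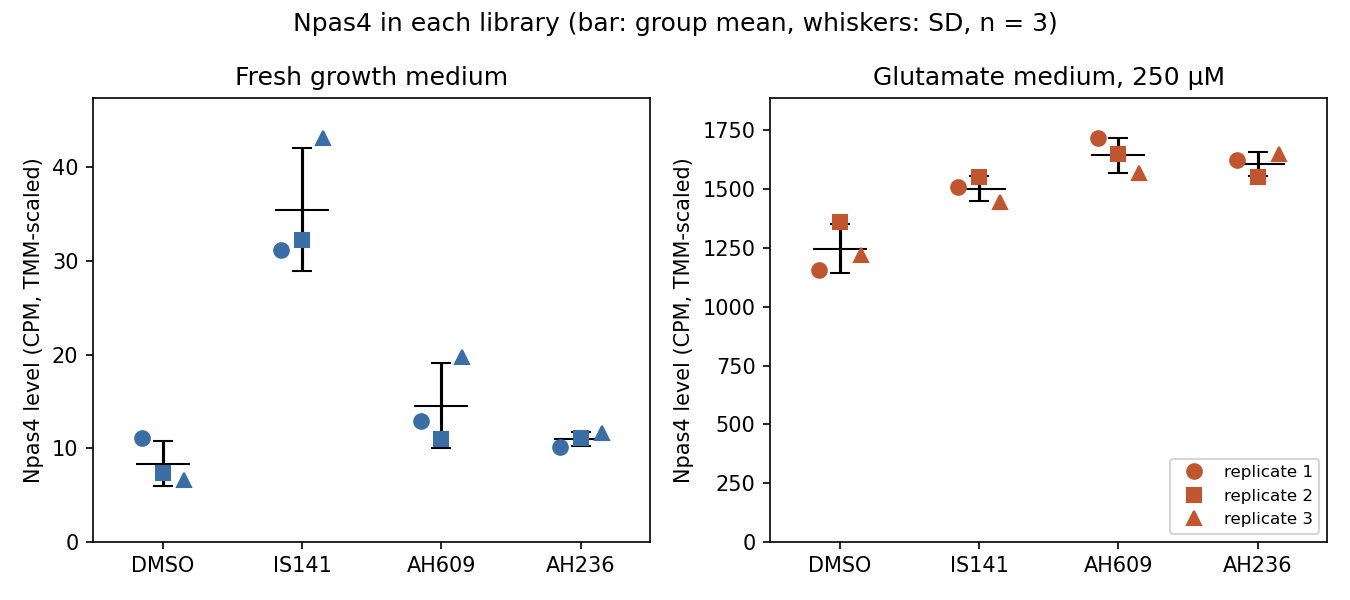
Npas4 level in each library, in CPM after TMM scaling, for the 4 treatments in growth medium (left) and in 250 μM glutamate (right); symbols are replicates, the bar is the group mean and whiskers are the SD (n = 3), and both vertical axes start at 0 but have different scales. In medium the 3 IS141 libraries sit at 31.1 to 43.1 CPM, above all others, while in glutamate the 3 DMSO libraries sit lowest, at 1158 to 1362 CPM.

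Glutamate cultures held far more of the transcript. In DMSO cultures the level was 1158, 1362 and 1221 CPM, a mean of 1247 ± 104 (SD, n = 3). These were the 3 lowest of the glutamate libraries. In IS141 cultures it was 1509, 1550 and 1445 CPM, a mean of 1502 ± 53.1 (SD, n = 3). In AH236 cultures it was 1623, 1552 and 1651 CPM, a mean of 1609 ± 51.2 (SD, n = 3). The highest mean was that of AH609 cultures, 1645 ± 74.2 CPM (SD, n = 3), from libraries at 1716, 1651 and 1568 CPM. The lowest glutamate library, DMSO replicate 1, was 26.9-fold above the highest medium library, IS141 replicate 3, so no glutamate group overlapped a medium group. Counts in glutamate ran from 33398 to 52806 per library, where Poisson counting error is at most 0.547% of the value.

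As a ratio, the treatments differed more in their Npas4 level in medium than in the level with glutamate, and in CPM they differed less. The ratio of the glutamate mean to the medium mean was 149 in DMSO, 147 in AH236, 113 in AH609 and 42.3 in IS141 cultures. Even the lowest glutamate library of each treatment exceeded its highest medium library 104-fold in DMSO, 134-fold in AH236, 79.6-fold in AH609 and 33.5-fold in IS141. The 4 medium means spanned a 4.24-fold range, or 27.1 CPM, and the 4 glutamate means a 1.32-fold range, or 398 CPM. The gain from medium to glutamate was 1238 CPM in DMSO, 1466 in IS141, 1598 in AH236 and 1630.5 in AH609 cultures. Without DMSO replicate 1 in medium the DMSO ratio was 179 and the medium range 5.08-fold. In IS141 cultures the medium level was 2.36% of the glutamate level, against 0.671% in DMSO cultures. The IS141 level in medium was 2.85% of the DMSO level in glutamate, and on the log2 scale the step from DMSO to IS141 in medium was 28.9% of the step from medium to glutamate in DMSO cultures, or 31.4% without that library.

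On the fitted scale the log2 fold change of glutamate against medium was 7.22 ± 0.22 (SE) in DMSO, 5.40 ± 0.20 in IS141, 6.82 ± 0.21 in AH609 and 7.20 ± 0.22 in AH236 cultures. These values include the contrast by which the gene was chosen and carry no test. In the same comparisons 59.1%, 59.1%, 61.3% and 60.6% of genes passed the test in either direction, and 28%, 32.7%, 34.1% and 33% had all glutamate libraries above all medium libraries. Of the 15908 genes, 4 had a larger fitted rise than Npas4 in DMSO cultures, 13 in IS141, 7 in AH609 and 7 in AH236. Among the 12169 genes whose mean reached 1 log2 CPM these numbers were 1, 5, 2 and 1. For DMSO cultures the fitted value was 7.48 with replicate 1 in medium left out. Scaling by library totals alone lowered the log2 fold changes to 7.03, 5.21, 6.65 and 6.996 in the same order.

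**Figure D2:**
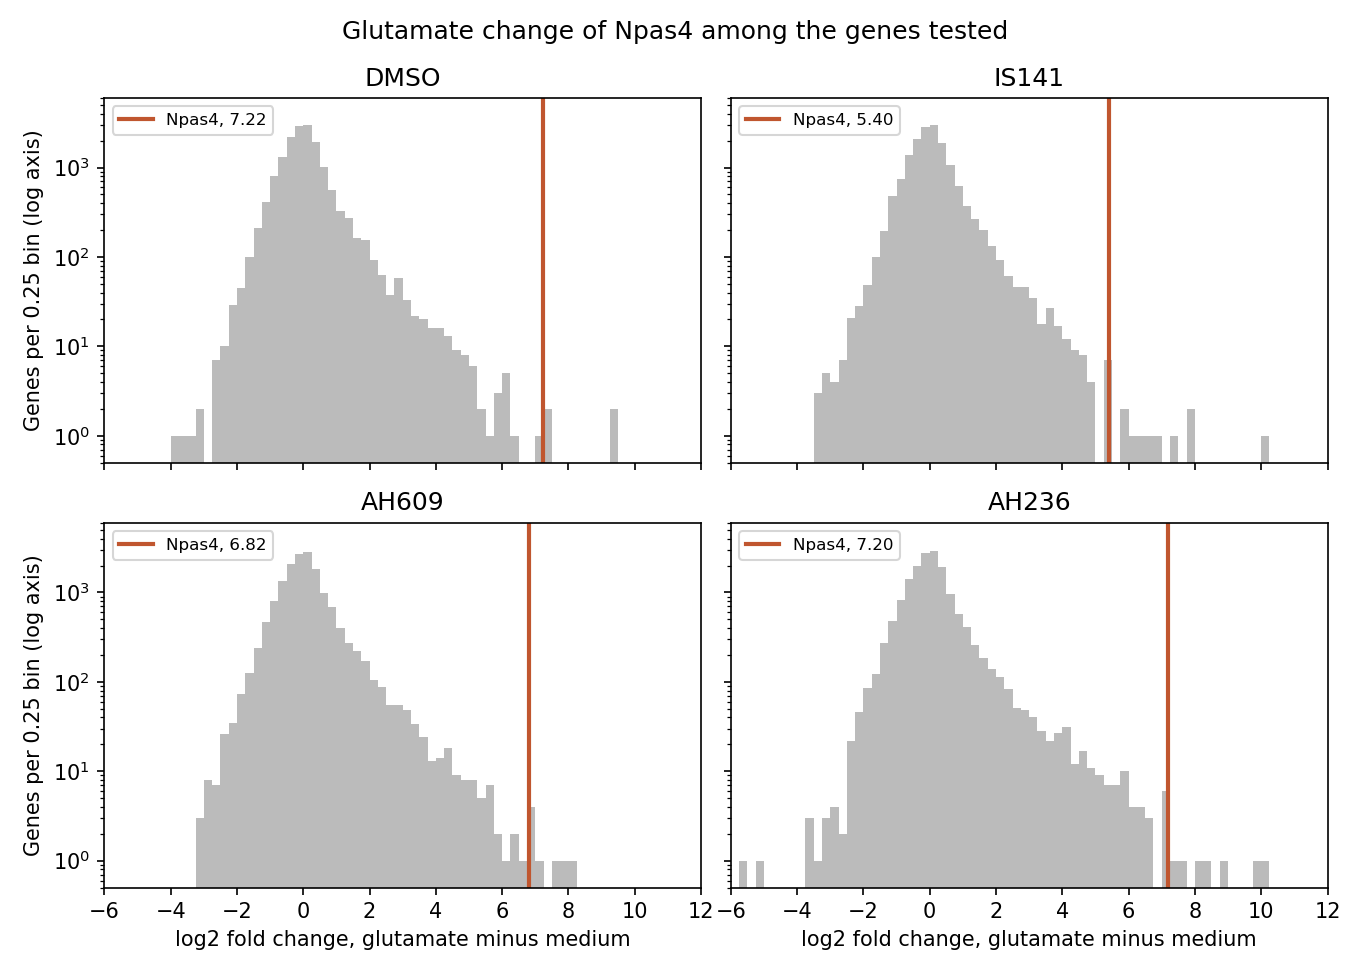
Histograms of the log2 fold change of glutamate against medium for the 15908 genes tested, 1 panel per treatment, with genes per bin of 0.25 on a log axis and a vertical line at Npas4. The line stands in the far right tail of each panel, at 7.22 in DMSO, 6.82 in AH609 and 7.20 in AH236, and nearer the bulk at 5.40 in IS141.

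Whether AH609 and AH236 altered Npas4 in growth medium was tested with edgeR's quasi-likelihood test over all genes. The DMSO libraries used here also entered the known difference of IS141 from DMSO in medium. The tests against DMSO are therefore not independent of the choice of the gene. With AH609 the level was higher than with DMSO, by 0.80 ± 0.20 on the log2 scale (SE; edgeR adjusted p = 0.0393), in a comparison in which 3.06% of genes were called. The groups overlapped, since AH609 replicate 2, at 11.03 CPM, lay below DMSO replicate 1, at 11.1 CPM. With the AH609 and DMSO medium libraries fitted alone the edgeR adjusted p was 0.46. Without AH609 replicate 3 the AH609 mean was 11.96 CPM and the log2 fold change 0.52 (edgeR adjusted p = 0.182), and without DMSO replicate 1 it was 1.06 (edgeR adjusted p = 0.00524). The edgeR adjusted p was also above the threshold without AH609 replicate 1 (0.0657), DMSO replicate 2 (0.0959) or DMSO replicate 3 (0.116), and without any 1 of 13 libraries outside the comparison (0.0502 to 0.0535), so the call stood at the edge of the threshold. DESeq2 called the difference (adjusted p = 0.00482). With AH236 the log2 fold change against DMSO was 0.39 ± 0.20 (SE; edgeR adjusted p = 0.251; 10.5% of genes called), with a 95% interval from -0.03 to 0.82, 0.65 without DMSO replicate 1 (edgeR adjusted p = 0.0715) and 0.24 without DMSO replicate 3 (edgeR adjusted p = 0.536). AH236 against AH609 gave -0.41 ± 0.19 (SE; edgeR adjusted p = 0.802; 0.0503% of genes called), with an interval from -0.82 to 0.00, and without AH609 replicate 3 the value was -0.13.

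In glutamate the question was whether an agent changed the level that the exposed cultures reached. All 9 agent libraries lay above all 3 DMSO libraries, the lowest of them, IS141 replicate 3, at 1445 CPM against 1362 CPM in the highest DMSO library. Taken for each agent alone, the share of all genes with agent libraries wholly above DMSO libraries was 13% for IS141, 11.2% for AH609 and 15.8% for AH236. The share for all 9 agent libraries together was not counted. These comparisons share the DMSO libraries. The log2 fold change against DMSO was 0.27 ± 0.16 (SE; 95% interval -0.07 to 0.61) with IS141, 0.40 ± 0.16 (0.06 to 0.74) with AH609 and 0.37 ± 0.16 (0.03 to 0.71) with AH236. None passed the threshold in the fit of all groups, with edgeR adjusted p-values of 0.337, 0.22 and 0.17, where 8.46%, 2.62% and 10.3% of genes were called. Two-sided exact permutation tests of log2 CPM gave p = 0.1 for each, the smallest possible with 3 against 3 libraries, and 0.18 after adjustment over 9 such tests.

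These calls changed with the libraries in the fit. Pooled within groups, the SD of Npas4 on the log2 scale was 0.323 over the medium groups and 0.0762 over the glutamate groups, and the fit of all 24 libraries gives both media 1 dispersion. With only the compared groups fitted, the differences from DMSO in glutamate all passed, at log2 fold changes of 0.27, 0.40 and 0.36 for IS141, AH609 and AH236 (edgeR adjusted p = 0.00891, 0.00033 and 0.000424). With the 4 glutamate groups fitted together, an alternative chosen after seeing the data, they passed as well, at 0.27, 0.40 and 0.36 (edgeR adjusted p = 0.00143, 5.76e-05 and 5.85e-05). DESeq2 on all libraries did not call these differences (adjusted p = 0.398, 0.271 and 0.212). Many other genes passed in each of these comparisons. Over the refits in which genes were counted, both narrower fits included, 1076 to 2423 genes were called with IS141. The range was 349 to 995 with AH609 and 1267 to 2530 with AH236. The share for each narrower fit on its own is not given here.

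Between agents in glutamate the differences were smaller than those from DMSO. AH609 was 0.13 ± 0.16 (SE) above IS141 on the log2 scale, with an interval from -0.21 to 0.47 (edgeR adjusted p = 0.805). In that comparison 0% of genes were called by edgeR and 26 genes by DESeq2, with 1595 genes at an unadjusted edgeR p under 0.05. AH236 was 0.10 ± 0.16 (SE) above IS141, with an interval from -0.24 to 0.44 (edgeR adjusted p = 0.768; 8.64% of genes called). Both groups lay above the IS141 libraries without overlap, as did 10.5% and 18.1% of genes, but for AH236 the gap was 1.3 CPM, and the groups overlapped when CPM were taken from library totals alone, at 1418 to 1482 against 1372 to 1467. The AH236 and AH609 libraries overlapped, and their log2 fold change was -0.03 ± 0.16 (SE), with an interval from -0.37 to 0.31 (edgeR adjusted p = 0.965; 0.742% of genes called). These SEs come from the fit of all groups. With only the compared groups fitted, AH609 was 0.13 ± 0.037 (SE) above IS141 (edgeR adjusted p = 0.108). In such fits AH236 was 0.09 ± 0.035 above IS141 (0.106) and -0.04 ± 0.036 from AH609 (0.581), so the SEs were smaller and none was called.

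**Figure D3:**
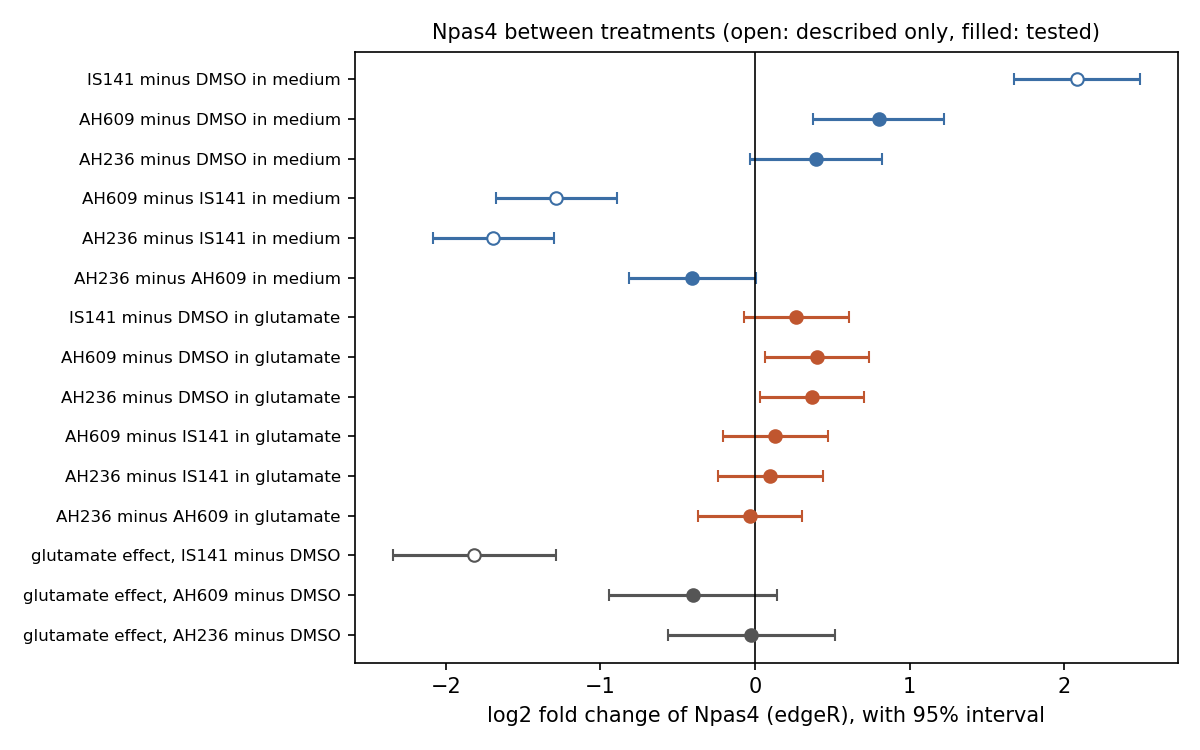
Log2 fold change of Npas4 between treatments in medium (blue) and in glutamate (orange), and the difference between an agent's glutamate effect and that of DMSO (grey), each with its 95% interval from the fit of all 24 libraries; open points are described only and filled points were tested. The comparisons with IS141 in medium lie far from 0, at 2.08, -1.29 and -1.69, and the differences in glutamate lie between -0.03 and 0.40.

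In order of mean level the groups were DMSO, AH236, AH609 and IS141 in medium, then DMSO, IS141, AH236 and AH609 in glutamate. Neighbours in medium up to AH609 overlapped, and IS141 stood apart from AH609 below it and from DMSO in glutamate above it. In glutamate, DMSO stood apart from IS141 without passing the test in the fit of all groups. In that fit the intervals of the differences among IS141, AH236 and AH609 all held 0. By mean level, IS141 was the highest treatment in medium and the lowest of the agents in glutamate.

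**Figure D4:**
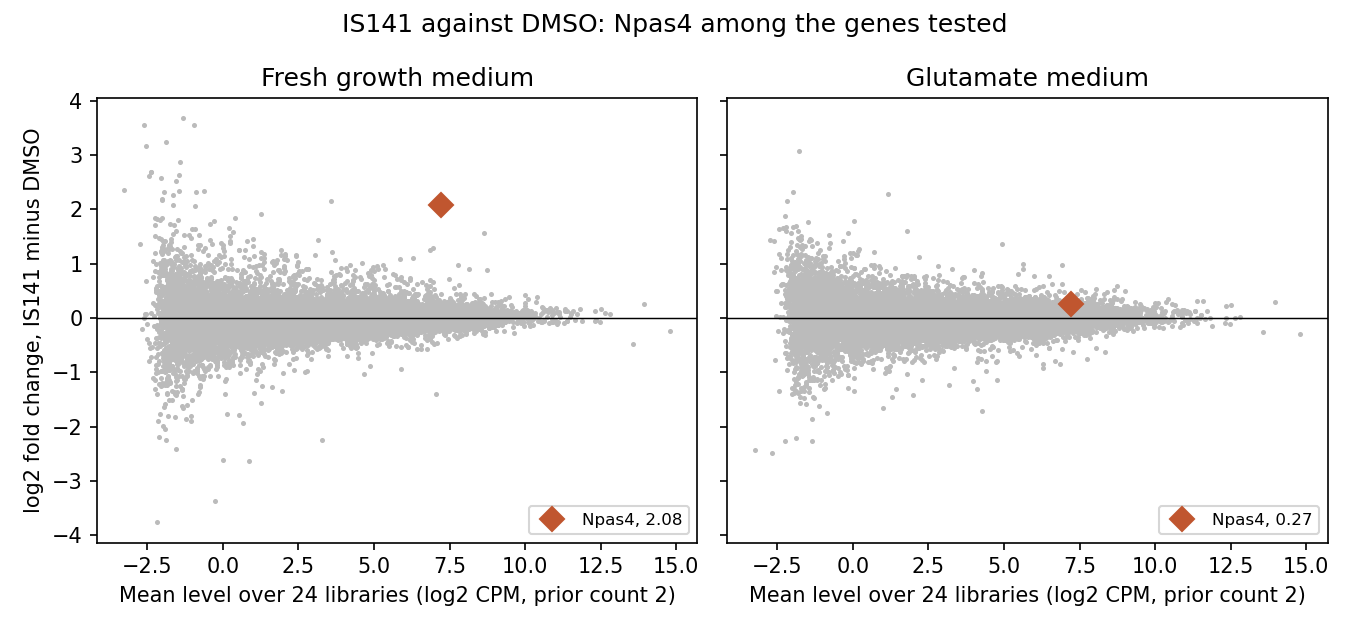
Log2 fold change of IS141 against DMSO (vertical) against mean level over the 24 libraries in log2 CPM (horizontal), 1 point per gene tested, in medium (left) and glutamate (right), with Npas4 as a diamond. Against genes of like mean level over the 24 libraries, Npas4 stands above them in the medium panel, at 2.08, and within their range in the glutamate panel, at 0.27.

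The difference between glutamate effects was taken as an interaction term. For IS141 against DMSO it was -1.82 ± 0.25 (SE; interval -2.34 to -1.29), and -2.08 without DMSO replicate 1. It contains the known level in IS141 medium cultures and is given as a description. In that comparison 0.779% of genes were called. For AH609 it was -0.40 ± 0.26 (SE; edgeR adjusted p = 0.8; 0.0251% of genes called), with an interval from -0.94 to 0.14. It was -0.66 without DMSO replicate 1 in medium and -0.12 without AH609 replicate 3 in medium. For AH236 it was -0.02 ± 0.26 (SE; edgeR adjusted p = 0.985; 1.55% of genes called), with an interval from -0.56 to 0.52, and its sign changed with single libraries left out. The glutamate rises behind the AH609 and AH236 terms were also known when the gene was chosen. These terms are therefore best read as descriptions too, and their p-values carry no weight as tests. In all, 11 comparisons of this gene were given a p-value, these terms among them. Adjustment of the unadjusted edgeR p-values over those 11 left AH609 against DMSO in medium at 0.0113 and the next lowest at 0.128. The two-sided exact permutation test of that AH609 comparison gave p = 0.2, or 0.3 after adjustment over 9 such tests.

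Npas4 varied more between replicates in medium than most genes did. Its SD of 0.323 was above that of 97.9% of the 2016 genes within 0.5 log2 CPM of its medium level, whose median SD was 0.107. Counting error was 2.95% to 6.95% of the value per medium library, while the CV between replicates was 29.0% in DMSO, 18.6% in IS141 and 31.4% in AH609, and 6.73% in AH236. The DMSO value includes replicate 1, at 11.1 CPM against 7.40 and 6.57. That of AH609 includes replicate 3, at 19.7 CPM against 12.9 and 11.03. In both groups the other libraries lay closer together, so these CVs and the SD pooled over the medium groups rest in part on these libraries. The SD, the CV and the share of genes with a lower SD were not computed without them. In glutamate its SD of 0.0762 was above that of 78.8% of the 66 genes of like level, whose median was 0.0520.

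The genes whose pattern was most like that of Npas4 were sought by Pearson correlation of log2 CPM among the 12168 other genes whose mean reached 1 log2 CPM. Over all 24 libraries the closest was ENSRNOG00000007607, with r = 0.998, followed by ENSRNOG00000008015, also with r = 0.998. Such values mostly reflect the medium, since 1042 genes had r above 0.95 and all points share the 2 media. Within the 12 medium libraries ENSRNOG00000007607 was again the closest, with r = 0.985, where 5 genes exceeded 0.95. By Spearman correlation this gene ranked 17 in medium and 5 over all libraries, and without DMSO replicate 1 in medium it ranked 2 and 3 by Pearson correlation. Its mean level in medium was 11.8 ± 1.18 CPM in DMSO, 13.3 ± 0.9003 in AH236, 15.7 ± 2.15 in AH609 and 25.3 ± 4.24 in IS141 cultures (SD, n = 3), the same order as for Npas4. In glutamate it was 327 ± 18.8 CPM in DMSO, 412 ± 33.0 in IS141, 421 ± 32.1 in AH236 and 436 ± 4.29 in AH609 cultures (SD, n = 3), which was also the order of Npas4. Because ENSRNOG00000007607 was picked for its likeness to Npas4 in these same libraries, the shared orders are not independent of that choice. How far the choice set these orders was not tested. ENSRNOG00000008015 was at 12.7 ± 6.93 CPM in DMSO, 14.7 ± 0.788 in AH236, 19.9 ± 3.68 in AH609 and 30.9 ± 4.12 in IS141 cultures in medium (SD, n = 3). In glutamate it was at 774 ± 36.1 CPM in DMSO, 850.4 ± 29.0 in AH236, 871 ± 25.3 in IS141 and 897 ± 36.7 in AH609 cultures (SD, n = 3), where AH236 and IS141 stood in the opposite order to Npas4. Within the 12 glutamate libraries the highest r was 0.96, and none of the 5 closest genes there was among the 8 closest over all libraries or the 5 closest in medium (0 shared in both). These correlations are descriptions over libraries that share treatment and medium.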

How the data were processed

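RNA was sequenced from 24 libraries in 8 groups of 3, assigned by sample titles; of 2 AH236 glutamate titles ending in 2, the later is called replicate 3. The authors deposited whole-number counts per Ensembl gene, unnormalized. STAR 2.7.8a, RSEM 1.3.3, cutadapt 2.3, FastQC 0.11.8, bcl2fastq and the build Rnor_6.0 are named in the submitters' processing notes; settings and annotation release are not stated there. Because RSEM makes estimates, the whole numbers may be rounded. Library totals ran from 22509400 to 35496447 counts.

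Counts were fitted with edgeR 4.0.16 in R 4.3.3 (filterByExpr, TMM, robust quasi-likelihood F test, 1 mean per group), checked on simulated counts, with Benjamini-Hochberg adjustment over 15908 genes per comparison and a threshold of 0.05. The simulated counts held no glutamate effect and the same dispersion in both media, so that check does not cover a spread that differs between media. The SE is the fold change over the square root of F. TMM factors were 1.03 to 1.10 in medium and 0.898 to 0.973 in glutamate, and levels compare 1 gene between libraries. Of 20 comparisons, 9 involved results known beforehand and are described only. The tested comparisons share libraries with the described ones, so they are not independent of the choice of the gene. Npas4 and the lists were chosen with earlier results of these data known. The 14 lists (gene sets and cell type markers, 186 genes) could not be applied, since 0 IDs matched a symbol. Named genes were Npas4 and, of the 8 closest by correlation over 24 libraries (and 5 each within a medium), 2 IDs. Alternatives were DESeq2 1.42.0, RLE size factors, library totals, no filter, compared groups alone, a replicate block, each library left out, and 1 medium alone.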

Additional observations from a re-analysis of the deposited data

Results flagged for a closer look

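The log2 fold change of Npas4 with glutamate was smaller in IS141 than in DMSO cultures, with a difference of -1.82 ± 0.25 (SE) between groups under the same contrast. Mean Npas4 levels were 35.5 CPM in medium and 1502 CPM in glutamate in IS141 cultures, and 8.37 and 1247 CPM in DMSO cultures. The level with IS141 in medium was known when the gene was chosen, and so was the glutamate rise, so this difference is a description and carries no test.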

How the results depend on the processing

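Of the 611 refits of the Npas4 comparisons, 575 kept their direction and their side of the threshold, or for described values stayed within 1 SD, taken as the SD of the difference from the SDs of log2 CPM in the groups compared. Many of these refits left out a library outside the comparison, which could act only through the shared fit. The count is therefore no measure of robustness. The AH609 difference from DMSO in medium lost its call with library totals (0.76, edgeR adjusted p = 0.0538), no filter (0.81, 0.0591), the title number as a replicate block (0.79, 0.0573), the compared groups alone (0.79, 0.46) and the medium groups alone (0.80, 0.199), and kept it with DESeq2 (0.80, 0.00482) and RLE size factors (0.80, 0.04). Its value ran from 0.52 to 1.06 with 1 library left out, and 17 of 24 such fits lost the call. The differences from DMSO in glutamate passed with the compared groups alone (0.27 for IS141, 0.40 for AH609 and 0.36 for AH236) and with the glutamate groups alone (0.27, 0.40 and 0.36). Library totals moved the described glutamate effect by more than this SD to 6.996 in AH236 and to 6.47 over all treatments, from 6.66. The AH236 difference of glutamate effects, not called in any fit, turned to 0.0080 with the replicate block and ran from -0.29 to 0.13 with 1 library left out. The cause of these changes was not tested.

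Whether title numbers pair the libraries was left undecided, since no test of the matches was run. The main fit used no pairing. In 2 of 11 same-numbered pairs of medium and glutamate libraries the deviations from the group means correlated above 0.1 (range -0.05 to 0.17). Yet 7 of 11 matched their own number best among the 3 glutamate libraries of their treatment, every DMSO library among them. The block changed no call other than that of AH609 in medium. Of the 8 genes closest to Npas4 over 24 libraries, 3 stayed among the closest by Spearman's rho and 5 without DMSO replicate 1 in medium; of the 5 in medium, 1 and 2 did; of the 5 in glutamate, 1 did by rho. The number of genes called moved by over 1.5 times in comparisons between treatments: with IS141, AH609 and AH236 against DMSO it was 1269, 487 and 1671 in medium, and ran from 62 to 1933, 3 to 1003 and 87 to 1967; in glutamate it was 1346, 417 and 1633, and ran from 1076 to 2423, 349 to 995 and 1267 to 2530. Between agents, AH609 against IS141, AH236 against IS141 and AH236 against AH609 gave 179, 1250 and 8 in medium (3 to 1000, 555 to 2324 and 1 to 256) and 0, 1375 and 118 in glutamate (0 to 37, 1050 to 2460 and 74 to 762). The differences of glutamate effects gave 124, 4 and 246 (30 to 742, 0 to 214 and 18 to 496). These ranges cover the changes of method and, of the fits with 1 library left out, only that without DMSO replicate 1 in medium. The planned counts over gene lists were not run, because no ID had a symbol.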

Other observations

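DMSO replicate 1 in medium lay close to the IS141 libraries on the main axis of variation but not in its Npas4 level. On the first principal component, which held 69.9% of the variance in log2 CPM, there was a gap between glutamate libraries, at 39.9 to 52.1, and medium libraries, at -58.8 to -38.6. Of the medium libraries, DMSO replicate 1 lay nearest to the glutamate side, at -38.6, followed by the IS141 libraries at -39.8, -40.4 and -41.9. Its Npas4 level of 11.1 CPM was nevertheless that of the AH236 cultures, at 10.1 to 11.6 CPM, and below the 31.1 to 43.1 CPM of IS141. AH609 replicate 3 came next on this axis, at -45.4, and was the highest of the other libraries in Npas4, at 19.7 CPM. DMSO replicates 2 and 3 lay farthest from the glutamate side, at -58.8 and -58.0, and had the lowest Npas4 levels, at 7.40 and 6.57 CPM.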
